A study of Mus musculus with 8 samples.

Results

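The paraoxonases are a family of 3 neighbouring genes, Pon1, Pon2 and Pon3, and their RNA was followed here in the kidney of mice that lost the mitochondrial gene Sdhd. Features, the spots of the array, were selected by gene symbol. They number 13 of the 45220 on the array, or 13 of the 33026 that carried a symbol: 10 for Pon1, 2 for Pon2 and 1 for Pon3. The family itself was chosen with the contrast between SDHD-ESR and +/- kidneys already known, so the values in that contrast are given as a description with no test. All 13 features passed the requirement of 3 values in each group, as did 39253 features in all.

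SDHD-ESR mice carried 1 floxed Sdhd allele opposite a deleted one together with a tamoxifen-inducible Cre recombinase (Cre-ER). The +/- mice had the same floxed and deleted alleles and no Cre. The reference was 1 pool of RNA from 8 +/+ mice, which had a floxed and an intact allele and no Cre. All were males on a 129/SvJ background, and all received tamoxifen at 100 µg per g of body weight into the peritoneum, daily for 4 days from 9 weeks of age. They were killed 1 week after the first dose, at 10 weeks. Per genotype 4 arrays were run with 2 mice on each, which makes 8 mice per genotype. Cre was present only where Sdhd was lost, so the effects of the transgene and of the deletion cannot be told apart. The product of Sdhd anchors succinate dehydrogenase in the inner mitochondrial membrane, and that enzyme is shared by the citric acid cycle and the respiratory chain.

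Paraoxonases are esterases that open the ring of lactones. PON1 takes its name from paraoxon, the active form of an organophosphate insecticide that it hydrolyses. It is made mainly in the liver, is secreted into the blood and travels on high-density lipoprotein (HDL) together with apolipoprotein A1. PON3 is a lactonase that is also found on HDL, and its RNA is known from liver and kidney. PON2 stays inside cells, is made in most tissues and is known for limiting the release of superoxide at membranes of mitochondria and the endoplasmic reticulum. Whole kidney was used, so fewer cells of a type and less RNA per cell cannot be told apart in any value below.

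The promoters of the 3 genes are shown because the genes lie side by side and are read from the same strand, while their ratios to the pool differed. Each sequence holds the 250 bases before 1 start site of the gene as RefSeq's promoter windows place it (build GRCm38.p6), written 5′ to 3′ on the strand of the gene. The outermost RefSeq boundary lies further out, so the last 41 bases of the Pon1 window, 52 of the Pon3 window and 5 of the Pon2 window fall inside the gene as RefSeq bounds it. Capitals mark matches on either strand to 1 of 5 motifs: the GC box GGGCGG, the aryl hydrocarbon receptor core GCGTG, the hypoxia-inducible factor core ACGTG, the nuclear receptor core AGGTCA and the TATA letters TATAA.
Pon1, chr6:5193947-5194196, minus strand: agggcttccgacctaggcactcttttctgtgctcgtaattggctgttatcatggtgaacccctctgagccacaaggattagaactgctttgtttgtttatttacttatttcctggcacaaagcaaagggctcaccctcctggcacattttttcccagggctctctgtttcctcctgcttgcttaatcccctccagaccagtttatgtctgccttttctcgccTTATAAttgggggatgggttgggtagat
Pon3, chr6:5256234-5256483, minus strand: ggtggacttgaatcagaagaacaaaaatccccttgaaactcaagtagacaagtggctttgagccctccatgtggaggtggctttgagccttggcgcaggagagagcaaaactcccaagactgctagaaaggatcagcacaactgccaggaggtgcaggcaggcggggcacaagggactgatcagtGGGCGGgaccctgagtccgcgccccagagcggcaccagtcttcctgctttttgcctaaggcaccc
Pon2, chr6:5298341-5298590, minus strand: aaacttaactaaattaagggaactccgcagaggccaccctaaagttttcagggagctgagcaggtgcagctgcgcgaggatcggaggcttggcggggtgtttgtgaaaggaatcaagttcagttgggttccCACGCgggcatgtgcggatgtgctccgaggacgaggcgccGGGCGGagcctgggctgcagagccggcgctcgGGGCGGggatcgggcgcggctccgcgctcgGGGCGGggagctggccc

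The Pon1 window held TATAA on both strands, as overlapping matches that begin at positions -28 and -27 from that start, and no GC box. The Pon3 window held 1 GC box, at -65. The Pon2 window held 3 GC boxes, at -79, -47 and -17, and 1 match to GCGTG on the opposite strand at -119. Of 32851 windows of the same length, 22.8% held TATAA, 32.7% GGGCGG, 28.2% GCGTG, 16.6% ACGTG and 14.0% AGGTCA. G and C made up 47.6% of the Pon1 window, 56.8% of that of Pon3 and 65.6% of that of Pon2, against a median of 52.4%. The windows of Pon1, Pon3 and Pon2 had 3, 6 and 24 CG pairs, with a median of 6 over all windows. These matches are letters in a window and do not show that a factor binds.

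Values below are log2 ratios of a kidney over the +/+ pool with the median of each array set to 0. A value below 0 then means less RNA than in the pool, relative to the middle of the array. The signs are opposite to those of the deposited table, in which Sdhd stood above the pool on all 8 arrays. The direction used here is likely but rests on that 1 feature, and turning it back would turn every difference below. With the sign so set, Sdhd was at -4.26, -3.65, -5.04 and -3.25 on the SDHD-ESR arrays and at -0.79, -0.40, -0.92 and -0.93 on the +/- arrays. That is 6.03% of the pool in SDHD-ESR kidneys and 59.0% in +/- kidneys. The table pairs values with features by a grid layout that was inferred from the values. Between repeated spots of 4960 accessions the layout gave r = 0.300, against -0.009 for plain numbering. Agreement between arrays was moderate, with r of 0.343 to 0.518 across features. Array medians before centring ran from -0.06 to 0.94 in SDHD-ESR and from -0.19 to 0.41 in +/-. Neither intensities nor signal over background are known, so the labelled tissue could not be checked by the level of its markers, and the number of arrays limits the precision.

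Pon1, the secreted esterase, was below the pool in both genotypes, and less so when Sdhd was lost. The mean over its 7 features with a value on every array was -0.66, -0.33, -1.33 and -0.64 on the SDHD-ESR arrays, against -1.54, -1.44, -1.41 and -2.11 on the +/- arrays. The groups did not overlap, though the lowest SDHD-ESR array, at -1.33, came close to the highest +/- array, at -1.41. The means were -0.74 ± 0.42 in SDHD-ESR and -1.63 ± 0.33 in +/- (SD, n = 4 arrays each). Pon1 RNA was thus at 59.8% of the pool in SDHD-ESR kidneys and 32.4% in +/- kidneys. The difference of 0.88 ± 0.27 (SE) is a 1.85-fold higher level in SDHD-ESR.

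**Figure D1:**
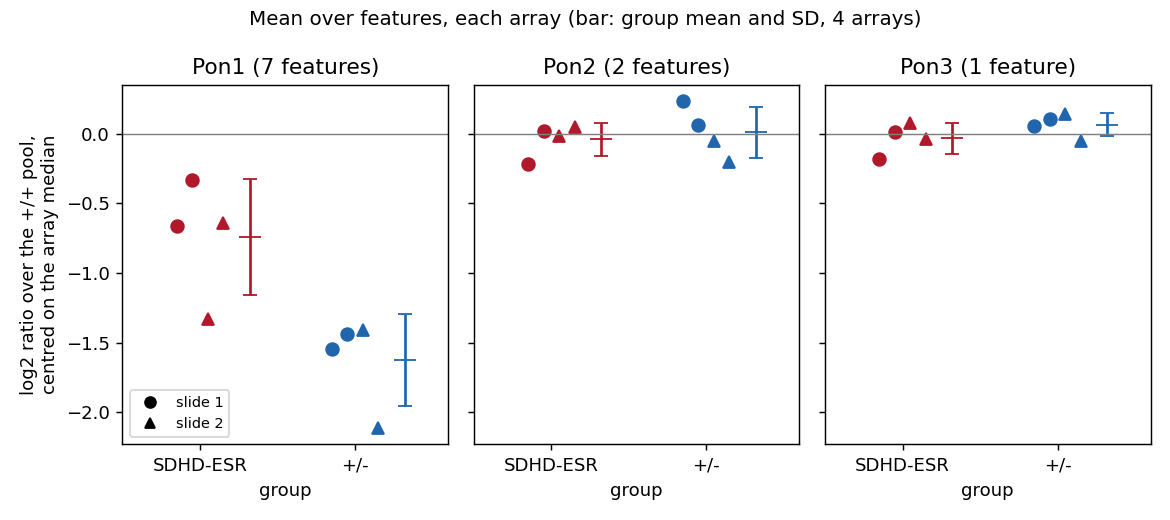
Mean log2 ratio over the pool (vertical axis) for Pon1, Pon2 and Pon3 on each SDHD-ESR array (red, left) and +/- array (blue, right), with circles for slide 1, triangles for slide 2 and bars for the group mean and SD. For Pon1 all 4 SDHD-ESR points lie above all 4 +/- points and every point is below 0, while the points of Pon2 and Pon3 lie around 0 and overlap.

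The intracellular Pon2 was near the middle of the array in both genotypes. Its mean over 2 features was -0.22, 0.02, -0.02 and 0.05 on the SDHD-ESR arrays and 0.23, 0.07, -0.05 and -0.20 on the +/- arrays. The groups overlapped fully, with a difference of -0.05 ± 0.11 (SE). Feature 10436 of Pon2 differed by 0.00 ± 0.19 and feature 25506, which stands for a cDNA of another accession, by -0.10 ± 0.10 (SE over arrays). Pon3, the other HDL-associated lactonase, was at -0.19, 0.01, 0.08 and -0.04 in SDHD-ESR kidneys and at 0.06, 0.11, 0.14 and -0.05 in +/- kidneys. Its groups overlapped too, and the difference was -0.10 ± 0.07 (SE). With arrays not centred the sign of both turned, to 0.21 for Pon2 and 0.16 for Pon3, while Pon1 differed by 1.14.

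A comparison within each array does not depend on how arrays were centred. Pon1 minus Pon2 was -0.45, -0.35, -1.31 and -0.69 on the SDHD-ESR arrays, against -1.77, -1.51, -1.36 and -1.91 on the +/- arrays. Pon1 minus Pon3 was -0.48, -0.34, -1.41 and -0.61 in SDHD-ESR and -1.60, -1.55, -1.55 and -2.06 in +/-. Pon1 was below both relatives on every array, relative to their ratios in the pool, and the groups did not overlap in either quantity. The differences between genotypes were 0.94 ± 0.25 for Pon1 minus Pon2 and 0.98 ± 0.27 for Pon1 minus Pon3 (SE). Pon3 minus Pon2 differed by -0.04 ± 0.09 (SE) and its groups overlapped.

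The 10 Pon1 features share 1 RefSeq transcript and the same arrays, so they are repeats of a measurement and not replicates of a genotype. The layout was itself chosen because repeated spots gave like values, so their agreement is no separate finding. All 10 were higher in SDHD-ESR, by 0.65 to 1.42 with a median of 0.94, or 1.57-fold to 2.68-fold. In 5 of the 10 features all SDHD-ESR values lay above all +/- values, against 2.84% of the 39253 features tested, a share from which nothing is read because Pon1 was chosen on this contrast. None of the 10 lay the other way, and the groups overlapped in the remaining 5. Of the 80 Pon1 values 4 were missing, since the table held whole numbers there that cannot be read as ratios.

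**Figure D2:**
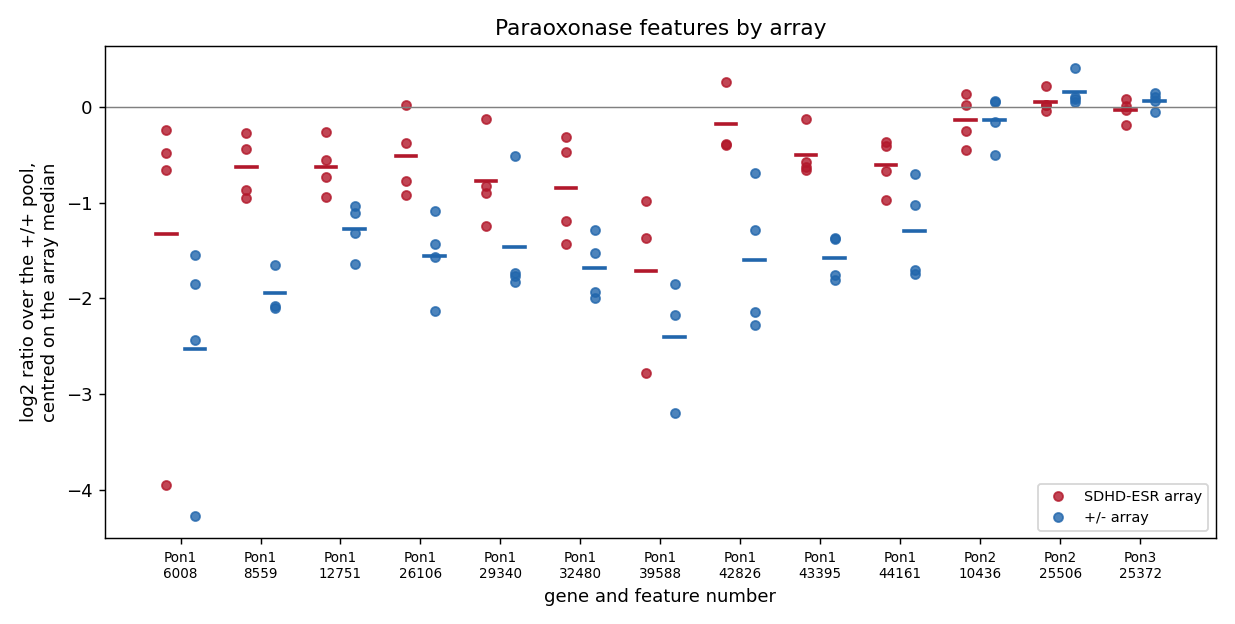
Log2 ratio over the pool (vertical axis) of each of the 13 paraoxonase features (horizontal axis, gene and feature number), with SDHD-ESR arrays in red on the left, +/- arrays in blue on the right and a line at each group mean. The +/- mean lies below the SDHD-ESR mean in all 10 Pon1 features, and feature 6008 has 1 value near -4 in each group.

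The features with separate groups show the size and spread of the Pon1 values. Feature 43395 had -0.66, -0.58, -0.63 and -0.13 in SDHD-ESR kidneys, against -1.37, -1.38, -1.76 and -1.81 in +/- kidneys. Feature 12751 had -0.56, -0.73, -0.94 and -0.26 in SDHD-ESR and -1.10, -1.03, -1.31 and -1.64 in +/-, the narrowest gap of the 5. Both had little spread, with SDs of 0.25 and 0.29 in SDHD-ESR. Feature 8559 had -0.27, -0.44, -0.87 and -0.95 in SDHD-ESR and -1.65, -2.08 and -2.10 on the +/- arrays with a value. Feature 26106 had -0.92, 0.02, -0.78 and -0.37 in SDHD-ESR and -2.13, -1.44, -1.09 and -1.57 in +/-. Feature 42826 gave the widest difference, 1.42, with -0.39, 0.26 and -0.40 in SDHD-ESR and -2.14, -0.69, -1.28 and -2.28 in +/-. The 2 values above 0 among these, 0.02 and 0.26, were both from SDHD-ESR array 2 and were the only Pon1 values above the pool.

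In the 5 features with overlapping groups, single arrays reached into the range of the other genotype. Feature 6008 had -0.48, -0.24, -3.95 and -0.66 in SDHD-ESR and -2.44, -1.85, -1.55 and -4.27 in +/-, and without the low value of -3.95 the groups would not have met. Feature 29340 had -0.90, -0.12, -0.83 and -1.24 in SDHD-ESR and -1.77, -1.83, -0.52 and -1.74 in +/-, where array 3 alone stood among the SDHD-ESR values. The same happened in feature 44161 through +/- array 1, at -0.70, which lay above the -0.97 of SDHD-ESR array 3. Feature 32480 overlapped through SDHD-ESR array 4, at -1.43, and +/- array 1, at -1.29. Feature 39588, the lowest of the 10 in SDHD-ESR, had -1.37, -0.98 and -2.78 there and -2.17, -1.85 and -3.20 in +/-.

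The spread over features differed between arrays. The median Pon1 feature was at -0.61, -0.34, -0.90 and -0.53 on the SDHD-ESR arrays, against -1.71, -1.48, -1.63 and -1.78 on the +/- arrays. By this measure, which single low features hardly move, the 4 SDHD-ESR arrays stood further from the +/- arrays than by the mean. The medians cover all Pon1 features with a value on the array, though, and the mean only those with a value on every array. Over the latter features the median differed by 0.94 ± 0.16 between genotypes, against 0.88 ± 0.27 for the mean (SE). The SD over features was 0.32 to 1.09 within an SDHD-ESR array and 0.45 to 0.89 within a +/- array. SDHD-ESR array 3, the lowest of its group, was also the one with the largest spread over features.

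The +/- kidneys were also set against the pool, with a limma fit across all features. The pool is 1 reference RNA, so the spread among +/+ mice is not in this test. With no dye swap, effects of dye and genotype cannot be told apart in it. This contrast uses the +/- arrays on which the family was chosen, and a choice for high SDHD-ESR over +/- favours low +/- values, so the counts and values of the members are a description and no p is given for them. All 10 Pon1 features were called lower in +/- kidneys than in the pool, against 5.94% of all features, and nothing is read from that share. Their means ran from -2.53 to -1.27, and all 38 Pon1 values on +/- arrays were below 0. Feature 43395 stood at -1.58 ± 0.12 (SE) and feature 6008, the lowest and least precise, at -2.53 ± 0.68 (SE). With the arrays not centred, 5 of the 10 were called, where 458 of the 39253 features were called higher or lower, and nothing is read from it. All 10 then stood below the pool, at -2.47 to -1.22. None of the 3 features of Pon2 and Pon3 was called, against 16.0% of all features called higher or lower. Feature 10436 of Pon2 stood at -0.14 ± 0.13, feature 25506 at 0.16 ± 0.08 and Pon3 at 0.06 ± 0.06 (SE). In SDHD-ESR kidneys 36 of 38 Pon1 values lay below 0.

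Array slide was the only batch that the labels gave, with 2 arrays of each genotype on each slide, and the position of an array on its slide followed the genotype. The Pon1 difference was 0.99 on slide 1 and 0.78 on slide 2. Over single Pon1 features it ran from 0.35 to 1.79 on slide 1 and from 0.09 to 1.41 on slide 2, above 0 in every case. Pon2 differed by -0.25 on slide 1 and 0.14 on slide 2, and Pon3 by -0.17 and -0.02.

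Genes beside the paraoxonases were tested with limma between SDHD-ESR and +/-, and a gene of several features is given by its feature of smallest p. Of the 39253 features tested, 6 were called (5 higher and 1 lower), or 0.0153%, and 2835 reached an unadjusted p of 0.05 or less. By gene, at the feature of smallest p, 1928 of 20462 genes reached it. A list with no call is thus like the array as a whole. Against the pool, 6.57% of genes had 1 or more features called lower in +/- kidneys and 13.6% had 1 or more called higher. Some features had a ratio within 0.01 of 0 before centring on 2 or more arrays. On such an array the centred value is the array median with its sign turned, which is lower on average in SDHD-ESR, and 824 of the 877 genes concerned came out lower. Counts of lists are therefore given with and without these genes. No paraoxonase feature had such a value on any array (0 of 13).

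Since PON1 is known as a liver product, the markers of hepatocytes stand beside it. Of 19 markers 18 were measured. Between SDHD-ESR and +/- 13 were higher and 5 lower, with a median of 0.47 against 0.02 over all 20462 genes, and without Serpina1c, whose ratio lay near 0, 13 were higher and 4 lower. Limma called none of them between the genotypes (4 at an unadjusted p of 0.05 or less). In +/- kidneys 8 of the 18 were called lower than the pool and 1, Apoc3, higher, against 6.57% and 13.6% of all genes. The mean over the list was -0.78 to -0.13 on the SDHD-ESR arrays and -1.22 to -0.80 on the +/- arrays. Fgb, a fibrinogen chain and the marker of smallest p, was at -0.54, -1.49, -1.67 and -0.73 in SDHD-ESR, against -2.72, -3.81, -2.47 and -2.12 in +/-. Its groups did not overlap, and it differed by 1.67 ± 0.42 (SE, limma adjusted p = 0.483).

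The markers did not share 1 pattern over the slides. Alb, the albumin gene, was at -3.51, -3.29, -1.57 and 0.06 in SDHD-ESR and -3.62, -3.27, -3.79 and -2.53 in +/-, and so differed by 0.04 on slide 1 and 2.40 on slide 2. Ahsg and Hpx, the gene of the haem carrier hemopexin, had the same pattern, with 0.07 and 0.03 on slide 1 and 2.26 and 2.18 on slide 2. Fgb differed by 2.25 on slide 1 and 1.10 on slide 2, and Mup20, a major urinary protein, by 1.65 and 1.33. Fgg, another fibrinogen chain, differed by 4.10 on slide 1 and -0.88 on slide 2. Itih1, of smaller p than Mup20, Alb, Ahsg, Hpx and Fgg, was lower in SDHD-ESR on both slides, at -1.50 and -0.30. It differed by -0.90 ± 0.33 between genotypes (SE, limma adjusted p = 0.639). Over the 18 markers the range was -1.50 to 4.10 on slide 1, where 3 differed by more than the 0.99 of Pon1, and -1.18 to 2.40 on slide 2, where 8 differed by more than its 0.78. Fgb and Mup20 did so on both. The mean over the list differed by 0.44 on slide 1 and 0.53 on slide 2, and its part in the Pon1 difference was not tested.

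In 8 of the 11 proximal tubule markers the ratio lay near 0 before centring, on 2 to 8 arrays, and all 8 came out lower. The other 3 were 2 higher and 1 lower in SDHD-ESR, with a median of 0.14. Of 4 endothelial markers 1 was higher and 3 were lower, with a median of -0.38. The medians were 0.14 for 4 distal nephron markers without Umod, whose ratio lay near 0 (3 higher), -0.10 for 2 podocyte markers (none higher), -0.22 for 6 macrophage markers (1 higher) and 0.31 for 3 fat markers (2 higher). Limma called none of these between the genotypes, and 3 endothelial, 1 proximal tubule, 1 distal nephron and 1 fat marker had an unadjusted p of 0.05 or less. That fat marker was Lep, at 0.31 in its feature of smallest p, while its mean over 10 features differed by 0.006. The part of all these markers in the Pon1 difference was not tested.

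**Figure D3:**
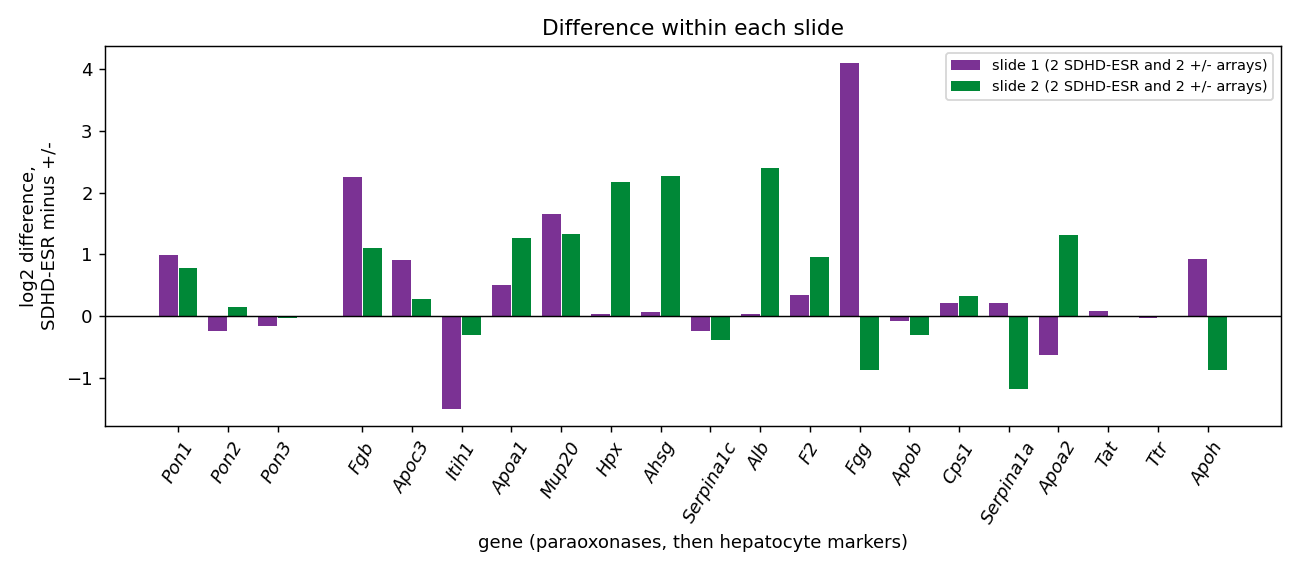
Log2 difference, SDHD-ESR minus +/- (vertical axis), within slide 1 (purple) and within slide 2 (green) for the paraoxonases (mean over features) and all 18 measured hepatocyte markers (feature of smallest p, in order of p). Pon1 differs by 0.99 and 0.78, Alb, Ahsg and Hpx almost only on slide 2, Fgb and Mup20 on both, and Fgg in opposite directions. Itih1 is lower in SDHD-ESR on both slides.

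Among the partners of PON1 and PON3 on HDL, 19 of 20 were measured, and limma called none of them between the genotypes (7 at an unadjusted p of 0.05 or less). Of these, 12 were higher in SDHD-ESR and 7 lower, with a median of 0.19. Without Apoe, Clu and Apom, whose ratios lay near 0 before centring, 12 were higher and 4 lower, with a median of 0.24. In +/- kidneys 7 of the 19 were called lower than the pool and 1 higher, against 6.57% and 13.6% of all genes. Apoa1, the main protein of HDL and the carrier of PON1, was at -1.91, -1.92, -1.32 and -0.61 in SDHD-ESR and -2.40, -2.26, -2.42 and -1.80 in +/-, as a mean of 9 features. Its difference was 0.77 ± 0.34 (SE), and its groups overlapped between SDHD-ESR arrays 1 and 2 and +/- array 4. Pon1 minus Apoa1 within arrays differed by 0.11 ± 0.52 (SE), an error that leaves room for a difference of either sign.

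The 4 HDL partners of smallest p were all apolipoproteins. Saa2, an acute-phase protein that joins HDL in inflammation, was at -2.50, -3.84, -3.79 and -2.55 in SDHD-ESR, against -5.13, -6.59, -4.76 and -6.11 in +/-. Its groups did not overlap, and the difference was 2.48 ± 0.51 (SE, limma adjusted p = 0.404). Apoc3, Apoc2 and Apoc1, which act on the handling of triglyceride-rich particles, differed by 0.59 ± 0.17, 0.42 ± 0.15 and 0.48 ± 0.17 (SE, limma adjusted p = 0.554, 0.630 and 0.638). Apoc3 was above the pool in both groups, at 1.30 in SDHD-ESR and 0.71 in +/-, which sets it apart from Pon1. The groups of Apoc3 did not overlap, and those of Apoc2 and Apoc1 did.

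Transcription factors reported to act on paraoxonase genes were measured for 15 of 17. Limma called none of them (3 at an unadjusted p of 0.05 or less). At the feature of smallest p, 8 were higher in SDHD-ESR and 7 lower, with a median of 0.03. Without Hnf4a and Nr1h4, whose ratios lay near 0, 8 were higher and 5 lower. Ppara, the fatty acid receptor and target of fibrate drugs, differed by 0.35 ± 0.11 at its feature of smallest p (SE, limma adjusted p = 0.584) and by -0.06 at the lowest of its 3 features. Nfe2l2, which drives antioxidant genes, differed by 0.30 ± 0.12, and Arnt, the partner of the aryl hydrocarbon receptor, by 0.31 ± 0.13 (SE, limma adjusted p = 0.680 and 0.704). The other feature of Arnt differed by 0.005. For Esr1, the oestrogen receptor gene, 1 of 12 features was at 3.46, 2.71, 2.98 and 1.31 in SDHD-ESR and -0.92, 0.08, -0.91 and -0.43 in +/-. That feature differed by 3.16 ± 0.47 (SE, limma adjusted p = 0.268), while the mean over all 12 features differed by -0.02. Cre-ER is a fusion of Cre with a part of an oestrogen receptor, and the part of the transgene in this value was not tested.

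A list of other esterases and lactone hydrolases, which also holds enzymes of other reactions such as Lactb2, was measured for 23 of 25 genes. Limma called none of the 23 between the genotypes (4 at an unadjusted p of 0.05 or less). Of these, 12 were higher in SDHD-ESR and 11 lower, with a median of 0.05. Without Esd, Ces1f and Aadac, whose ratios lay near 0 before centring, 12 were higher and 8 lower, with a median of 0.08. The carboxylesterases Ces1e, Ces1d and Ces2e differed by -0.33 ± 0.09, 0.44 ± 0.15 and 0.39 ± 0.15, and Lactb2, a mitochondrial RNA-cleaving enzyme named for its lactamase fold, by -0.37 ± 0.14 (SE, limma adjusted p = 0.539, 0.606, 0.639 and 0.639). These 4, the genes of smallest p in the list, were split evenly in direction, and none reached the size of the Pon1 difference. Against the pool, 4 of the 23 were called lower and 2 higher in +/- kidneys, against 6.57% and 13.6% of all genes.

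The paraoxonase cluster spans 130 kb of chromosome 6. Within 500 kb on either side RefSeq places 20 genes, of which 10 were measured, 7 of them other than paraoxonases. Limma called none of the 7 between the genotypes (2 at an unadjusted p of 0.05 or less). Peg10, an imprinted gene of retrotransposon origin, was at 0.14, 0.09, 0.16 and 0.16 in SDHD-ESR and -0.17, -0.12, -0.09 and -0.16 in +/-. Its groups did not overlap, and it differed by 0.27 ± 0.07 (SE, limma adjusted p = 0.498). Sgce, the imprinted sarcoglycan gene beside it, differed by -0.04 and Pdk4, an inhibitor kinase of pyruvate dehydrogenase, by -0.09. Ppp1r9a, which lies nearest to Pon1 among the measured genes before it, differed by 0.45 ± 0.67 (SE) at 1 feature and 0.01 at the other. Gmfg-ps differed by 0.75 ± 0.50 (SE). Asb4 differed by -0.77 ± 0.48 (SE) at 1 feature and -0.01 at the other, and Dync1i1 by -0.46 at 1 feature and 0.49 at the other. Pon3 and Pon2, the genes next to Pon1 on its other side, differed by -0.10 and -0.05.

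**Figure D4:**
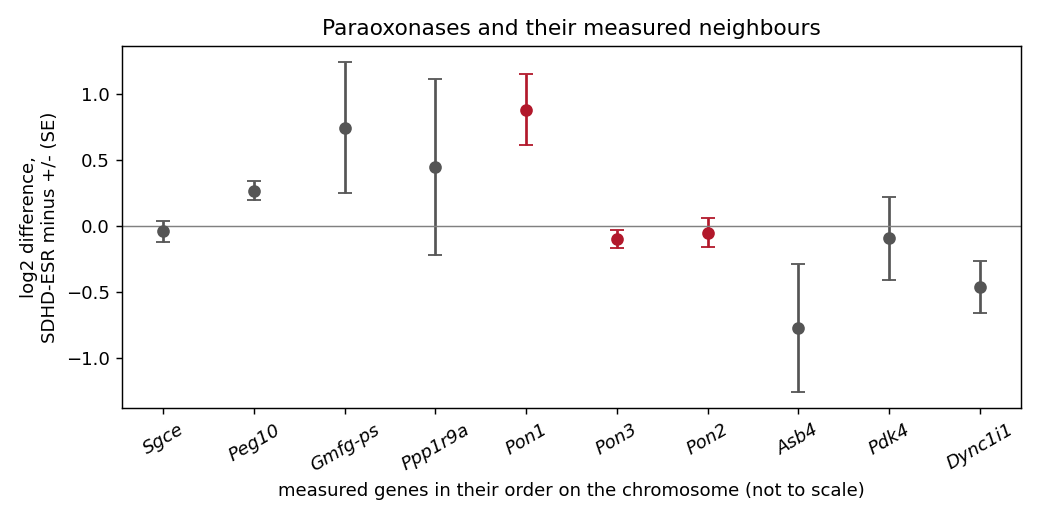
Log2 difference, SDHD-ESR minus +/- (vertical axis), for the paraoxonases (red, mean over features with the SE over arrays) and the 7 other measured genes within 500 kb (grey, feature of smallest p with the SE from limma), in their order on the chromosome. Pon1 stands at 0.88, beside Pon3 and Pon2 near 0.

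Among 18575 genes with a value on every array, the profile over the 8 arrays most like that of Pon1 was that of Hp, with Pearson's r of 0.957. Hp encodes haptoglobin, a plasma protein of the liver that binds free haemoglobin. It was at -0.28, -0.21, -1.71 and -0.97 in SDHD-ESR and -1.64, -1.57, -1.48 and -2.44 in +/-, and differed by 0.99 ± 0.41 (SE). On slide 1 it differed by 1.36 and on slide 2 by 0.62. Array by array it stood close to Pon1, with SDHD-ESR array 3 the lowest of its group and +/- array 4 the lowest of all. Gm5079, Aldh3b1, Gpr1 and Dph5 followed, with r of 0.942, 0.940, 0.935 and 0.933. The plasma protein genes Alb, Ahsg, Hpx and Apoa1 were far less like Pon1, with r of 0.177, 0.213, 0.283 and 0.352. For Fgb, Saa2 and further plasma protein genes r with Pon1 is not given, so Hp need not be the only one alike. Pon2 and Pon3 had r of 0.05 and -0.35 with Pon1, and 0.58 with each other.

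The profiles most like that of Pon2 were those of Krtap19-5, Dcaf11 and Nedd8 (r of 0.931, 0.931 and 0.924), and for Pon3 those of Cbx5, Zfp958 and Rad21l (0.971, 0.954 and 0.946). Values of Pon2 and Pon3 varied little between arrays, so these likenesses rest on small deviations. All 8 points share the pool and the centring and fall in 2 genotypes, and the most like of many genes were picked, so the coefficients are a description of these arrays.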

How the data were processed

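Kidney RNA (200 ng per array) from 4 SDHD-ESR and 4 +/- samples of 2 mice each was hybridised in Cy5 against 1 pool of +/+ RNA in Cy3, with no dye swap, on Agilent two-colour arrays. The authors used a GenePix scanner and Multi-Experiment Viewer. How background was corrected and arrays normalized is not given in the sources used here, and the methods give the dye wavelengths in swapped order. The values the authors deposited are treated as a score, because they mix log2 ratios with whole numbers of up to 65024 in size (9.03% of values). The design foresaw log2 ratios, and all whole numbers were set to missing.

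The row order of the deposited table was matched to the platform by a 532 by 85 grid inferred from the values, not from a key. The sign was turned so that Sdhd fell, and each array was centred on its median. Features with at least 3 values per group were fitted in limma 3.58.1 (R 4.3.3) with 1 mean per group, a two-sided test and Benjamini-Hochberg adjustment over all features (threshold 0.05, prior degrees of freedom 1.46). The fit was tested on simulated data. Gene values of paraoxonases are means over features with a value on every array, and genes of lists are given by their feature of smallest p. Each array counted as 1 replicate, and which mice shared an array is not given in the labels.

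Named are all paraoxonase features, Sdhd, up to 4 genes of smallest p per list of HDL partners, transcription factors and esterases, measured genes within 500 kb, and the 5 genes most like Pon1 and 3 most like Pon2 and Pon3. The hepatocyte genes Alb, Ahsg, Hpx, Apoa1, Fgb, Fgg, Mup20 and Itih1, the fat gene Lep, and genes whose ratios lay near 0, were named after their values were seen. Other lists covered proximal tubule, distal nephron, podocytes, endothelium, macrophages and fat. The members and lists were chosen with earlier results of these data known. Promoter sequences and gene order are from RefSeq (GRCm38.p6), where all 3 symbols matched. Alternatives were no centring, scaling to equal spread, small whole numbers kept, only complete features, features near 0 left out, blocks of replicate number or slide, single slides, and each array left out.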

Additional observations from a re-analysis of the deposited data

Results flagged for a closer look

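In 5 of the groups of 4 arrays that belong to named features, 1 array stood apart from the other 3 by more than Dixon's critical value. Chance flags about 1 in 20 groups, and 67 groups were looked at. In SDHD-ESR kidneys, Pon1 feature 6008 was at -3.95 on array 3, against -0.66 to -0.24 on the others. Pon1 feature 43395 was at -0.13 on SDHD-ESR array 4, against -0.66 to -0.58. In +/- kidneys, Pon1 feature 29340 was at -0.52 on array 3, against -1.83 to -1.74. Pon2 feature 25506 was at 0.40 on +/- array 1, against 0.05 to 0.10. A feature of Ppara was at 0.89 on SDHD-ESR array 2, against 0.61 to 0.62 on the others.

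The single array that stood apart was a different one in each of the 3 Pon1 features, and the other Pon1 features on SDHD-ESR array 3 ran no lower than -1.19.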

How the results depend on the processing

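The Pon1 difference moved by less than the SD between replicates under all alternatives run. It was 0.72 to 1.08 with single arrays left out, 1.14 with arrays not centred, 0.99 within slide 1 and 0.78 within slide 2. It was 0.94 over features with 3 or more values in each group, a setting chosen after seeing the data. Pon2 differed by 0.21 with arrays not centred, -0.25 within slide 1, 0.14 within slide 2 and -0.12 to 0.02 with single arrays left out. Pon3 differed by 0.16 with arrays not centred and by -0.13 to -0.05 with single arrays left out.

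Calls between SDHD-ESR and +/- numbered 6, against 2 with arrays not centred, 2 with arrays scaled, 2 with slide as a block, 1 with the replicate block and 0 to 4 with single arrays left out. Calls in +/- against the pool numbered 6266, against 458 with arrays not centred and 1859 to 5486 with single arrays left out. Without +/- replicates 1, 2, 3 and 4 they were 2694, 3528, 2129 and 1859. The replicate number does not pair the samples: deviations of same-numbered arrays had r of 0.038, 0.035, -0.018 and 0.075. In +/- against the pool, Pon1 features 6008, 12751, 26106, 29340 and 42826 lost their call with arrays not centred. With single arrays left out, features 8559, 39588 and 42826 had too few values to be tested in some cases. Where tested, feature 6008 lost its call in every case but that of SDHD-ESR replicate 3. Feature 42826 lost it without +/- replicates 1, 3 and 4, and feature 29340 without +/- replicate 4. All Pon1 features tested stayed below the pool. These calls are a description, since the family was chosen on these +/- arrays and the Pon1 features are repeats of a measurement. The replicate block and the slide block gave no test of this contrast. Sgce differed by 0.22 and Pdk4 by 0.17 with arrays not centred, and with single arrays left out Pdk4 differed by -0.35 to 0.14 and Ppp1r9a by -0.0082 to 0.92. The cause was not tested. The sign of all values rests on 1 feature, depth of signal over background is unknown, and 4 arrays per group limit the precision.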
